A study of Drosophila melanogaster with 3 samples.

Results

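The peaks described here are the anti-GFP ChIP-seq peaks of the Drosophila melanogaster transcription factor Lola-RI that lie in pericentric heterochromatin and on the small, heterochromatin-rich chromosome 4. They were chosen by position alone. A peak of the list called on the pooled replicates is a member when its summit lies on chromosome 4, on X above 22.6 Mb, on 2L above 22.0 Mb, on 2R below 5.4 Mb, on 3L above 22.9 Mb or on 3R below 4.2 Mb of the dm6 genome build. These 6 regions held 135 of the 30000 pooled peaks, or 0.45%. Of the 135 members, 61 were on 4, 32 on X, 19 on 3R, 11 on 2R, 7 on 2L and 5 on 3L. The authors' shorter list, made by thresholding on the irreproducible discovery rate (IDR), held 55 of them, 33 of which were on 4. The rest of the pooled list, 29865 peaks of which 9147 were in the IDR list, served as the comparison.

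The material was whole larvae in the wandering stage of the third instar, of unknown age and with males and females pooled, from a transgenic line that stably carries the Lola-RI isoform with eGFP at its C terminus. There were 3 biological replicates of this 1 group and no second condition. The labels name lola as the antibody's target in one field and describe an immunoprecipitation against GFP in another. They give neither the promoter nor the insertion site of the transgene. A whole larva mixes many tissues, so a peak carried by few cells and a weak peak carried by many cannot be told apart.

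Lola encodes a large set of zinc finger isoforms that share a BTB dimerization domain and differ in the zinc fingers at their C-terminal ends, and it is best known for its part in axon guidance and in keeping neurons differentiated. Pericentric heterochromatin is the repeat-rich chromatin beside the centromeres, marked by methylated histone H3 lysine 9 and by HP1, in which genes are sparse and often very long. Chromosome 4 carries much of the same chromatin together with a protein of its own, POF, and yet its genes are expressed.

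The sequences below show what lay under the strongest member summit of X, 2L, 3L and 3R, and under 3 of the strongest on 4. Each is the plus strand of dm6, 81 bases centred on the summit, read from the RefSeq release 6 genome. Capitals mark matches, on either strand, to 4 related 6-mers. The first is AAAGCT. The next, AAAAGC, starts a base earlier. Another, AAGCTC, starts a base later. The last is AAGCTT, its own reverse complement. They are the 4 that hold a G or C among the 6 leading 6-mers at summits outside the regions, as described further on, and they overlap one another.
CR33294 (chr3R:4187398-4187478): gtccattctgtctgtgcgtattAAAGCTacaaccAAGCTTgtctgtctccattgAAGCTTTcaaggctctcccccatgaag
CG17698 (chr3L:23737988-23738068): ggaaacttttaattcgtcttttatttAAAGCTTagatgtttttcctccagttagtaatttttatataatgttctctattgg
stnA (chrX:23004821-23004901): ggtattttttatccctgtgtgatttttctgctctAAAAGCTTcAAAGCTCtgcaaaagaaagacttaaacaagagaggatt
CG31601 (chr2L:22045113-22045193): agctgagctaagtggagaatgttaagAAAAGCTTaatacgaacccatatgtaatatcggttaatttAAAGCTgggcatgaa
Pur-alpha (chr4:557915-557995): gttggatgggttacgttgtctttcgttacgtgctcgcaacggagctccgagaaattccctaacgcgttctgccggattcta
CG31997 (chr4:156111-156191): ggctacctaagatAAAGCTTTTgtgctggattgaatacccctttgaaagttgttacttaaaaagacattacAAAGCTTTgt
Actbeta (chr4:1084805-1084885): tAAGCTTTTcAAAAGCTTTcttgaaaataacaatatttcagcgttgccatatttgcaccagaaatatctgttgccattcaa
The strongest member of X, 2L, 3L and 3R each held a match within these bases. On chromosome 4 the members at CG31997 and Actbeta did, whereas the one at Pur-alpha held none.

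Peaks were sparse in all 6 regions. The pooled list had 7.25 peaks per Mb in the regions (Poisson 95% interval 6.08 to 8.58, counting error only) and 259 per Mb in the rest of the genome, 35.7 times as many. The 3 replicate lists, of 30000 peaks each, had 7.25, 7.84 and 8.22 peaks per Mb in the regions, and 259 per Mb in the rest in each of them. The difference between regions and rest had the same sign in 3 of 3 replicates. An exact sign-flip permutation test over the replicates, two-sided, gave p = 0.25, the smallest value that 3 replicates allow, so no comparison over replicates here can pass a threshold of 0.05.

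The regions also differed from the rest in gene density. The regions had 32.0 annotated transcription start sites (TSSs) per Mb, against 203 per Mb in the rest. Per 100 TSSs the pooled list had 22.7 member peaks and 128 peaks elsewhere, a ratio of 5.62. Bases that the reference assembly masks as repeats made up 38.9% of the regions and 17.1% of the rest. The labels do not state how reads that align to several places were treated. The parts that gene density and unalignable sequence have in the low peak density were not tested.

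The regions differed widely from one another. The pooled list had 45.2 peaks per Mb on 4 and 34.0 per Mb on X, and 4.62, 2.04, 0.96 and 4.52 per Mb on 2L, 2R, 3L and 3R. Per 100 TSSs the order changed, with 65.5 peaks on 3R, 43.8 on X, 33.0 on 4, 9.57 on 2R, 7.29 on 2L and 5.16 on 3L. The region of 3R, highest on this scale, had 19 pooled peaks and only 29 TSSs in 4.20 Mb. The first Mb inside its boundary held 18 of the peaks and 22 of the TSSs. The 3 replicates kept 3R highest per TSS, at 58.6, 58.6 and 75.9 peaks per 100 TSSs, and 4 highest per Mb, at 44.5, 57.9 and 52.7.

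**Figure D1:**
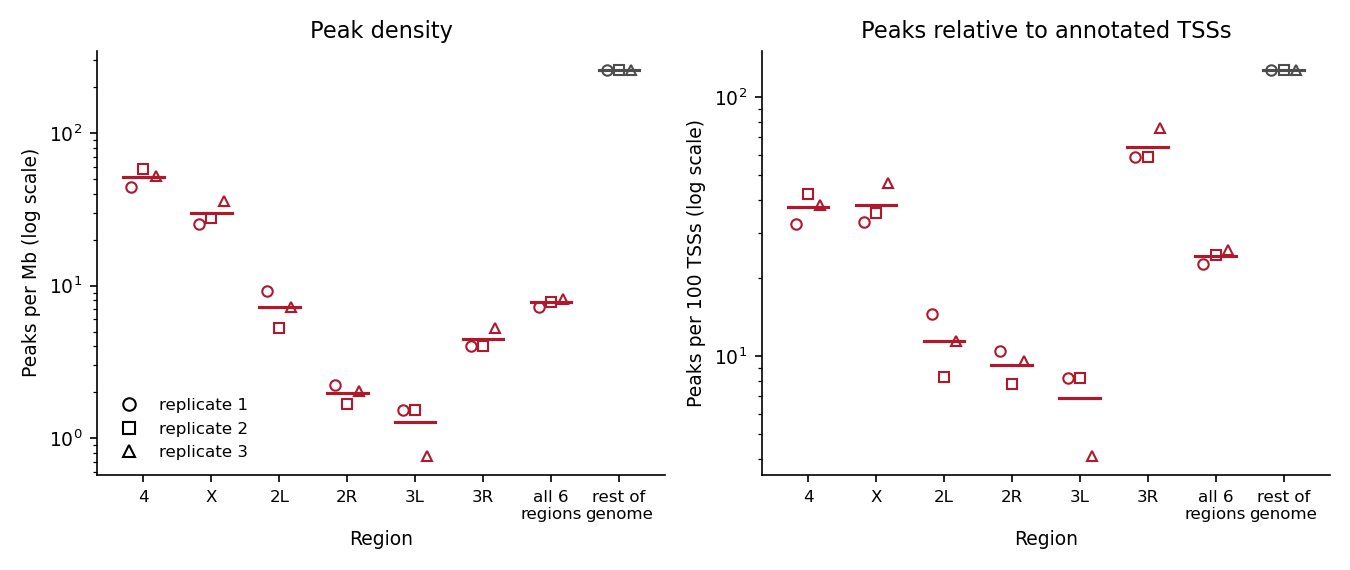
Peaks per Mb (left) and per 100 annotated TSSs (right) in each of the 6 regions, in all 6 together and in the rest of the genome, on log axes. Each symbol is 1 replicate list of 30000 peaks and each line the mean of 3. All 6 regions lie below the rest on both scales, with 4 highest per Mb and 3R highest per TSS.

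On 2L and 3R members lay near the edge of the region. All 7 members on 2L and 17 of 19 on 3R were within 250 kb of the boundary, against 2 of 5 on 3L and 0 of 11 on 2R. On X 12 of 32 were, in a region that is only 0.942 Mb long. The first Mb inside the 5 boundaries held 12.5 peaks per Mb in the pooled list (12.4 ± 1.52 over the replicate lists, SD, n = 3). The first Mb outside held 172 per Mb (176 ± 1.40). Per 100 TSSs the pooled values were 23.6 inside and 105 outside. The step was smallest on X, at 34.0 per Mb inside and 46.0 outside, and X had 32 of the 62 inner peaks. On 2L, 2R, 3L and 3R the inner values were 7, 1, 4 and 18 per Mb, and the outer ones 110, 147, 246 and 311. The 3L region had no pooled summit between 23738236 and 28091371, a gap of 4.35 Mb that spans nvd, Snap25, Set1, vtd and Dbp80. On 3R the first 2.41 Mb held none, although most of the very long gene Myo81F lies there. The peaks nearest to each boundary on its inner side were at Cda4 on X (32.8 kb inside, rank 15089), CG31601 on 2L (45.2 kb, rank 1526), Gprk1 on 2R (929 kb, rank 22389), CG12768 on 3L (9.92 kb, rank 10330) and beta-Man on 3R (2.74 kb, rank 6416). On the outer side the nearest were at S6kII on X (72.3 kb outside, rank 29277), lncRNA:CR45362 on 2L (118 kb, rank 7594), stw on 2R (13.6 kb, rank 7133), lncRNA:CR44688 on 3L (5.07 kb, rank 8264) and CG14636 on 3R (14.3 kb, rank 10157). Ranks are by the authors' score, from 1 for the highest, within the pooled list. The 2R region had the opposite layout to 2L, with 10 of its 11 members more than 1 Mb inside. Its strongest peaks, singled out after their values were seen, were at 2079831 (rank 2815), inside the 396 kb gene CG17684, and at 1243499 (rank 2917), between rl, which encodes a MAP kinase, and CG40191. The first ranked 2783, 4196 and 2433 in replicates 1, 2 and 3 and the second 2586, 4480 and 2505, so both were recovered in every replicate.

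**Figure D2:**
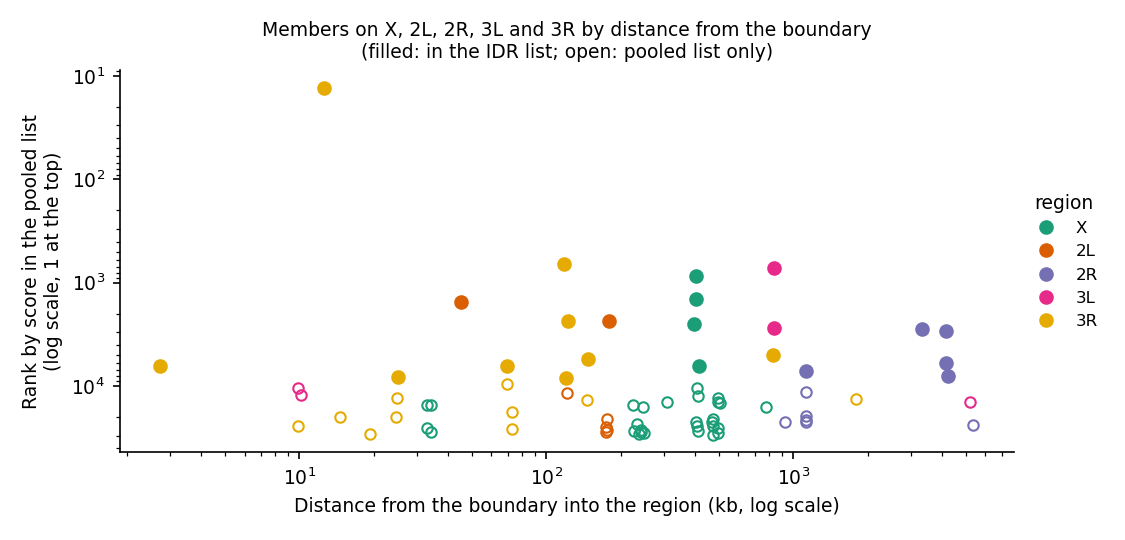
Rank in the pooled list against distance from the boundary into the region for the 74 members on X, 2L, 2R, 3L and 3R, on log axes with the highest score at the top. Filled symbols are in the IDR list and open ones are not. Members on 2L and most on 3R lie within 250 kb of the boundary, and 10 of the 12 members more than 1 Mb inside are on 2R, 5 of them in the IDR list.

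Chromosome 4 had 61 pooled summits in 18 clusters, where a cluster joins summits at most 10 kb apart. Of these, 33 lay in 104 kb, from 404535 to 508337, in 3 clusters of 15, 9 and 9 summits. This stretch was picked out because its summits were dense, so its density is a description. It held 28, 31 and 28 summits in replicates 1, 2 and 3, or 279 ± 16.7 per Mb (SD, n = 3). That is close to the 259 per Mb of the rest of the genome, whereas the parts of chromosome 4 before and after it had 33.0 ± 2.85 and 32.6 ± 7.93 per Mb. The first of the 3 clusters lay between dati and lgs, where no coding gene starts, with lncRNA:CR43437 as the nearest annotated start of its best peak. The other 2 lay at Asator, a protein kinase gene, and at the 5′ end of zfh2, which encodes a transcription factor with zinc fingers and homeodomains.

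A smaller part of the dense stretch's summits scored high enough for the IDR list than of those scattered over the rest of the chromosome, a difference given as a description. Of the 33, 13 (39.4%) were in the IDR list, against 7 of 9 before it and 13 of 19 after it. Of all pooled peaks 30.7% were in the IDR list, so the stretch was not below the list as a whole. Taken over the whole gene, zfh2 held 13 pooled summits in 39.1 kb, 4 of them in the IDR list, more than any other gene of the 6 regions. Asator held 7 in 19.6 kb, 3 of them in the IDR list. The other genes with 5 or more were fog on X, which encodes a secreted signal for cell shape change at gastrulation, with 8, CG42346 on X with 6, all of which also lie in fog, and CG12581 on 3R with 5. None of the summits in fog or CG42346 was in the IDR list, and 1 in CG12581 was.

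**Figure D3:**
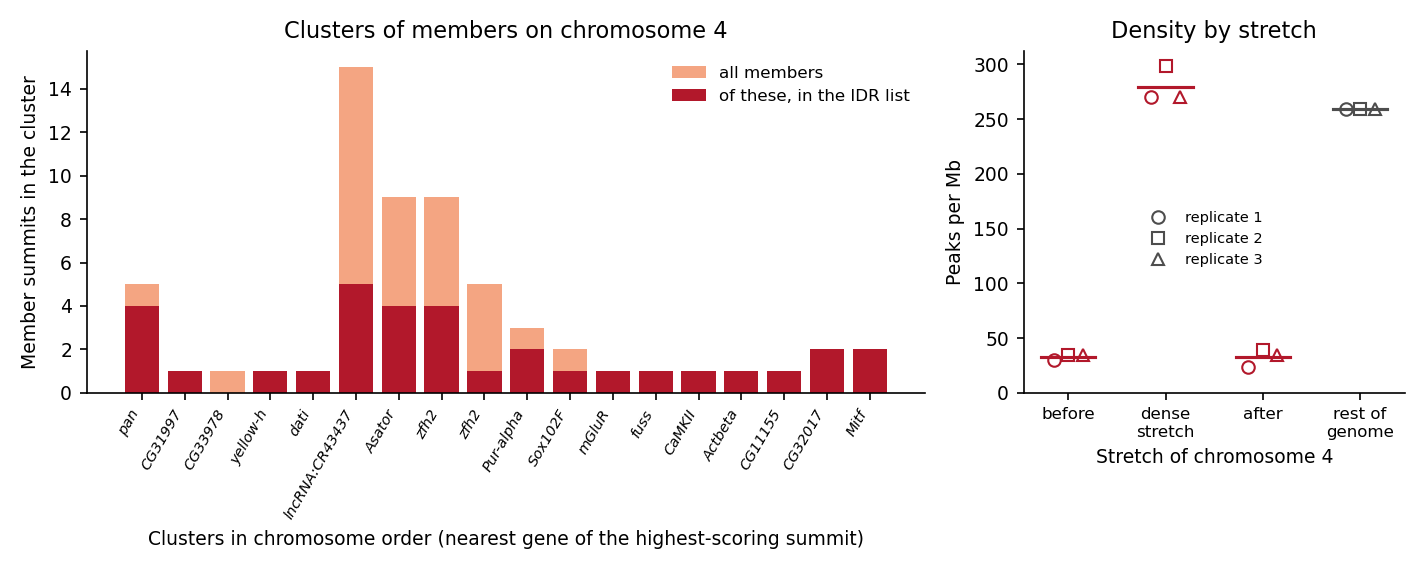
Left, pooled summits in each of the 18 clusters of chromosome 4, in chromosome order and named by the gene nearest to the best summit, with the part in the IDR list in dark red; right, peaks per Mb in the dense stretch, before it, after it and in the rest of the genome, with 1 symbol per replicate and lines at the means. The clusters at lncRNA:CR43437, Asator and zfh2 hold 15, 9 and 9 summits, and most other clusters hold 1 or 2.

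The highest-scoring member covered 4186630 to 4187864 of 3R. It ranked 13 among all pooled peaks and 23, 9 and 16 in replicates 1, 2 and 3. Its summit lay 475 bp downstream of the start of the pseudogene CR33294, inside it, 687 bp past the end of CG12581 and 2254 bp from Dsk, which encodes the drosulfakinin neuropeptides. It was 12.6 kb inside the boundary. Dsk itself had a pooled promoter summit that was far weaker, at rank 24535.

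On chromosome 4 the strongest peak, rank 56, lay in intergenic sequence. Its summit was 20.9 kb from dati and 20.5 kb from lgs, and its replicate ranks were 48, 51 and 65. At rank 97 was the promoter of Pur-alpha, a gene for a protein that binds single-stranded nucleic acid. The peak covered 556985 to 559012 with its summit 61 bp upstream of the Pur-alpha TSS. Tdg, a thymine DNA glycosylase gene, also starts within 500 bp of that summit. The replicate ranks were 84, 111 and 91. Promoters of CG31997 (rank 217, summit 91 bp upstream) and of Actbeta (rank 218, summit 49 bp upstream) came next. Actbeta encodes an activin-like ligand of the TGF-β family. Its replicate ranks were 206, 291 and 210. fuss, a gene of the Ski/Sno family of Smad cofactors, had a peak 1466 bp upstream of its TSS at rank 266.

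Of the remaining 9 peaks among the 15 highest-scoring members, 6 were on 4, and 1 each on 3R, 3L and X. On 4 they lay near lncRNA:CR43437 (rank 382), at the promoters of CG32017 (rank 675), Asator (rank 924), pan (rank 934) and CG11155 (rank 946), and 1420 bp upstream of Sox102F (rank 1095). pan encodes TCF, the transcription factor at the end of the Wnt pathway, and Sox102F a Sox-family transcription factor. The 3R peak lay in an intron of CG42402 (rank 656) and the 3L peak 68 bp downstream of the TSS of CG17698 (rank 727). On X the peak was 213 bp upstream of stnA and stnB, the pair of genes read from the stoned transcript that acts in synaptic vesicle recycling (rank 868; 1413, 639 and 828 in the replicates). All 15 were overlapped by a peak in every replicate.

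Members were more frequent among strong peaks than in the list as a whole. They made up 3 of the 100 highest-scoring pooled peaks, 14 of the highest 1000 and 37 of the highest 5000 (0.74%), against 0.45% of all 30000. In replicates 1, 2 and 3 the highest 1000 held 10, 15 and 15 members. Because the IDR list was made up of the 9202 top-ranked pooled peaks, membership in it is a limit on score. It held 40.7% of the 135 members (Wilson 95% interval 32.8 to 49.2, counting error over peaks only), 30.6% of the rest and 30.7% of all pooled peaks. The share was 54.1% on 4 (41.7 to 66.0), 42.9% on the arms of chromosomes 2 and 3 together (29.1 to 57.8) and 12.5% on X (4.97 to 28.1). Without chromosome 4 it was 29.7% (20.5 to 40.9), an interval that holds the value of the rest.

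**Figure D4:**
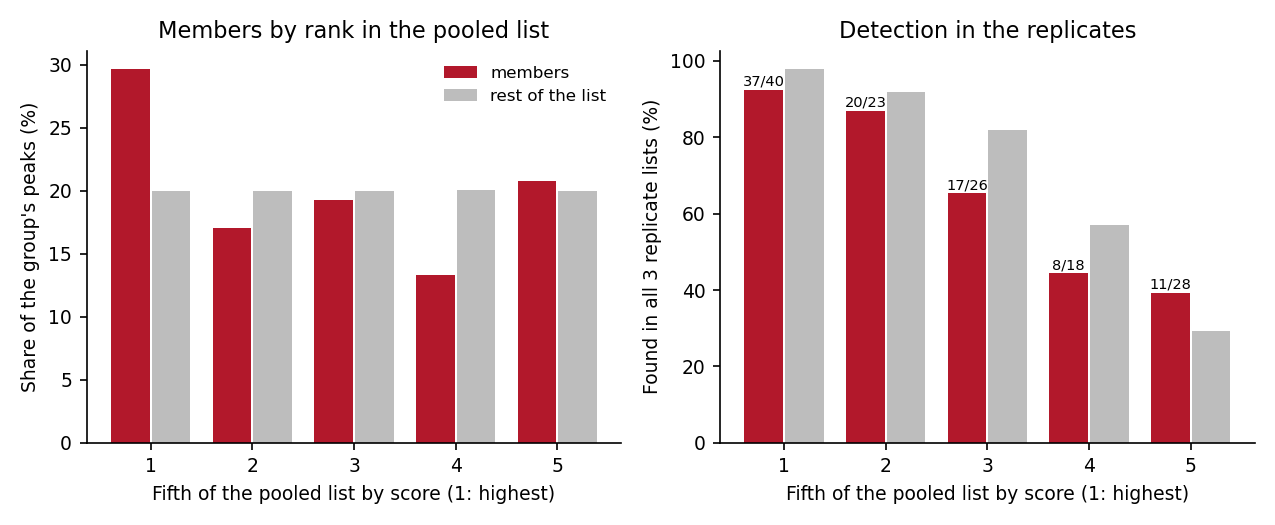
Left, share of the 135 members and of the 29865 other peaks in each of 5 equal parts of the pooled list by score; right, share of each that was overlapped by a peak in all 3 replicate lists, with counts over the member bars. The top 6000 peaks held 29.6% of members, and the share found in all 3 replicates was highest there and lowest among the last 6000 in both groups.

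Members were found again in the replicates about as often as other peaks over the whole list, while in all but the lowest of 5 equal parts of the list by rank their share was below that of the rest, a difference by rank that was not tested. A peak in every replicate list overlapped 93 of 135 members, 68.9% (60.7 to 76.1), against 71.6% of the rest and 71.6% of all pooled peaks. In the top 6000 peaks the shares were 92.5% of 40 members and 97.8% of the rest, in the next 6000 87.0% and 91.9%, then 65.4% and 81.9%, 44.4% and 57.1%, and 39.3% and 29.3% in the last. Replicates 1, 2 and 3 held 87.4%, 80.0% and 94.8% of the members, and 89.1%, 84.6% and 87.9% of the rest. Relative to the rest, members were thus lower in replicates 1 and 2 and higher in replicate 3 (exact sign-flip permutation, two-sided, p = 1). Of the IDR members 50 of 55 were found in all 3, 90.9% (80.4 to 96.1), against 96.2% of the other IDR peaks. By region the share in all 3 was 75.4% on 4, 76.2% on the arms of 2 and 3 and 46.9% on X. Of the X members, replicate 2 overlapped 65.6%, with replicate 1 at 78.1% and replicate 3 at 90.6%. Over all 55 IDR members, absent ones included, the median distance to the nearest summit was 7, 11 and 10 bp in replicates 1, 2 and 3, against 14, 13 and 9 bp for the other IDR peaks.

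A few strong members were absent from a single replicate list. Among the 5000 highest-scoring pooled peaks, 3 of 37 members and 79 of 4963 others lacked an overlapping peak in at least 1 replicate (8.11%, Wilson 95% interval 2.80 to 21.3, and 1.59%, 1.28 to 1.98). All 3 members were on 4. The peak at the shared promoter of yellow-h and CG31999 ranked 1378 in replicate 1 and 1275 in replicate 3, and replicate 2 had no summit within 71.7 kb of it. The peak in mGluR, the metabotropic glutamate receptor gene, 472 bp downstream of its TSS, ranked 1831 and 1922 in replicates 2 and 3, with the nearest summit of replicate 1 42.7 kb away. The peak in an intron of dati, a zinc finger transcription factor gene, ranked 4197 and 3939 in replicates 2 and 3, with the nearest summit of replicate 1 15.4 kb away. The other 2 IDR members absent from a replicate, at the promoters of Gfat1 (rank 6335) and beta-Man (rank 6416) on 3R, had no overlapping peak in replicate 2. Library depth by replicate is unknown, and its part in these absences was not tested.

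Relative to genes, member summits were less often in introns and more often in intergenic sequence than the rest. Intergenic summits made up 29.6% of the members and 16.9% of the rest in the pooled list, and 28.2%, 29.5% and 25.5% of members against 16.7%, 16.8% and 15.2% of the rest in replicates 1, 2 and 3. The difference was 11.5 ± 1.17 percentage points (SD, n = 3; exact sign-flip permutation, two-sided, p = 0.25), with members higher in 3 of 3. Introns held 27.7% ± 2.53 of members over the replicates and 41.3% ± 0.93 of the rest, a difference of -13.5 ± 1.73 points. The intergenic share was not high in every region. It was 32.8% on 4 and 38.1% on the arms of 2 and 3 in the pooled list, and 12.5% on X, where the replicates gave 16.7%, 7.69% and 17.6%. On 4 most of it came from 1 place. Of the 20 intergenic summits there, 15 made up the 20.5 kb cluster between dati and lgs. More than 10 kb from any TSS lay 17.8% of members (35.7% on the arms of 2 and 3, 13.1% on 4 and 3.12% on X) and 9.22% of the rest. Coding exons held 2 of 135 member summits, 1.48% (0.41 to 5.24), and 2.33% of the rest, so the groups were close in this.

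The share at promoters, within 500 bp of an annotated TSS, did not separate the groups in the full lists. It was 36.3% of members (28.7 to 44.7), 34.3% of the rest and 34.3% of all pooled summits. In the replicates it was 37.1% ± 1.21 of members and 35.6% ± 0.73 of the rest, higher for members in 2 of 3 (exact sign-flip permutation, two-sided, p = 0.5). Among strong peaks the share was lower for members, though within counting error in the IDR list and not in every region. In the IDR list 49.1% of members (36.4 to 61.9) and 55.6% of the rest were at promoters, a value that the interval holds. By region it was 51.5% on 4, 38.9% on the arms of 2 and 3, and 3 of 4 summits on X. With each replicate list shortened to 9202 peaks the shares were 48.7% ± 2.04 of members and 56.5% ± 2.74 of the rest, lower for members in 3 of 3 (exact sign-flip permutation, two-sided, p = 0.25). At promoters, member summits sat a median of 44 bp upstream of the TSS, against 49.5 bp upstream for the rest. On 4, 75.0% of promoter summits were on the upstream side, and on the arms of 2 and 3 only 28.6% of 14 were.

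Counted over genes, promoters in the regions seldom had a peak. An IDR summit lay within 500 bp of a TSS of 24 of 243 protein-coding genes in the regions, 9.88% (6.73 to 14.3), of 34.4% of 13702 genes outside, and of 34% of all coding genes. With each replicate list cut to its 9202 top-ranked peaks the shares were 10.3%, 10.3% and 10.7% of the region genes, and 34.1%, 32.9% and 36.6% of the genes outside. The pooled list gave 35 of the 243 genes, 14.4%, against 48.7% outside and 48.1% of all. Chromosome 4 had 15 of these 24 genes, 18.8% of its 80 coding genes. X had 4 of 23, which were stnA, stnB and the neighbours Rab21 and Coa7, 3R had 4 of 14, and 3L had CG17698 alone of 42. No coding gene of the 37 on 2L or the 47 on 2R had an IDR promoter summit, which at 3 counts of the total allows shares of up to 8.11% and 6.38%. The shortened replicate lists had promoter summits at 1, 2 and 0 genes of 2L and at 1, 0 and 0 of 2R. Those on 3R were CG42402, Gfat1, an enzyme gene of the hexosamine pathway, beta-Man, which encodes beta-mannosidase, and CG12581. These counts include pairs that share a single summit, such as stnA with stnB, Pur-alpha with Tdg and yellow-h with CG31999.

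Transcription factor genes of chromosome 4 are set here beside all 80 coding genes of that chromosome, of which 18.8% had an IDR promoter summit. Of 13 transcription factor genes, 3 had an IDR promoter summit: pan, Mitf, which encodes a regulator of lysosomal genes (rank 1192, summit 7 bp upstream), and zfh2 (rank 5049). dati had a summit in its body. ci, the effector of Hedgehog signalling, the Pax6 genes ey and toy, the Pax gene sv, onecut, Sox102F, lgs, Hcf and fd102C had none at a promoter and none in the body. Sox102F had the upstream peak given above, and ci was the nearest gene of an IDR peak 3375 bp upstream of it (rank 5872; 6424, 4762 and 8102 in the replicates). Replicate 2 alone had a promoter summit at 6 of the 13, against 3 in replicates 1 and 3. Of 28 neuronal, signalling and other genes of chromosome 4 on a second list, 4 had an IDR promoter summit, namely Pur-alpha, Tdg, Asator and mGluR. Among the 24 without were the ephrin pair Eph and Ephrin, the plexins PlexA and PlexB, and unc-13, Cadps and Syt7, which act in vesicle release. This list is not complete. Actbeta (rank 218) and CaMKII (rank 2590) on chromosome 4 are not on it, and both had an IDR promoter summit.

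Genes known from classical work on heterochromatin had few promoter peaks, as did the regions outside chromosome 4 as a whole, where 9 of 163 coding genes (5.52%) had an IDR promoter summit and 11.7% a pooled one. Of 28 such genes, among them lt, rl, cta, Nipped-A, Nipped-B, Parp1, AGO3, vtd and Snap25, none had an IDR promoter summit, which allows a share of up to 10.7%. The pooled list added su(f), which encodes a subunit of the mRNA cleavage stimulation factor (rank 13011), and Gprk1, a kinase of G protein-coupled receptors (rank 22389). The ecdysteroid synthesis genes nvd and spok, which sit in the heterochromatin of 3L and 3R, had no summit at a promoter or in the body in the pooled list, nor a promoter summit in any replicate. An IDR peak on 3R at 3374335 (rank 4987) had spok as the nearest coding gene on its left, and Parp1 on its right. It lay 19849 bp past the end of spok, 51525 bp from the spok TSS and 87016 bp from Parp1. Of 4 ribosomal protein genes on the list, RpS3A on 4 had an IDR promoter summit (rank 4988), and RpL5, RpL15 and RpL38 had none.

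On chromosome 4 and X, member summits held fewer masked bases than the sequence beside them. Masked bases made up 16.4% of the windows reaching 50 bp to either side of member summits and 24.8% of windows 500 bp to either side, with 38.9% over the regions as a whole. In the rest of the list masked bases were 17.9% at summits and 16.8% beside them. On 4 the figures were 12.1% at summits and 24.5% beside them, and on X 15.2% and 25.3%. On the arms of 2 and 3 they were close, at 23.6% and 24.9%. More than 50% of the window was masked at 10 of 135 members (7.41%, and 16.7% on the arms of 2 and 3) and at 7.59% of the rest. A single pooled member, on X at 22908934 (rank 14268), had its summit in an annotated transposable element, a gypsy7 copy. That is 0.74% of members, where such elements cover 16.6% of the regions, against 0.28% of the rest, where they cover 4.21%. Replicates 1, 2 and 3 had 0, 2 and 7 summits of the regions in elements, all of them ranked below the 9202 highest, so replicate 3 stood apart in this. GC content of the windows was 39.4% at member summits and 36.7% beside them, against 40.9% and 42.0% in the rest. On 4 it was 39.1% at summits and 34.4% beside them, on X 41.6% and 38.2%, and on the arms of 2 and 3 38.1% and 39.0%, in the direction of the rest.

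Of all 2080 6-mers counted with their reverse complements, AAAGCT was the one most raised at the IDR summits outside the regions, in 23.3% of 9147 summit windows and 5.58% of flanking windows. In the 55 IDR members it was in 36.4% of summit windows and 11.8% of flanking ones. At least 1 of the 4 related 6-mers, a set put together after these values were seen, was present in 25 of 55 IDR member windows, 45.5% (33.0 to 58.5), and in 34.7% of the other IDR windows. Flanks held them in 16.4% and 16.8%. The other leading 6-mers outside the regions hold only A and T, and these were not raised at members. TTAAAA was in 21.8% of IDR member windows and 26.4% of their flanks, against 24.8% and 15.6% for the other IDR peaks. TAAAAA was in 21.8% and 30%, against 26.5% and 18.1%. The regions differed in this. On 4 each of these 6-mers was in 18.2% of the 33 IDR windows and 36.4% of the flanks. On the arms of 2 and 3 each was in 27.8% of the 18 IDR windows, with TTAAAA in 11.1% and TAAAAA in 19.4% of the flanks. No ranking of 6-mers was made on the members themselves. For the set of 4, among members below the IDR list the share was 23.8%, against 18.1% in their flanks.

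Among these 4, the palindrome AAGCTT differed most between members and the rest in the IDR list, and it was singled out here for that. The test below uses replicates of the same data, so it describes this choice and is no independent support. AAGCTT was in 29.1% of IDR member windows and 11.4% of the other IDR windows, with 4.55% and 2.46% in the flanks. In the 9202 highest-scoring peaks of replicates 1, 2 and 3 it was in 29.1%, 21.7% and 29.7% of member windows and 11.4%, 9.66% and 12.7% of the rest, higher for members in 3 of 3 (difference 15.5 ± 3.08 percentage points, SD, n = 3; exact sign-flip permutation, two-sided, p = 0.25). It was present in 27.3% of the 33 IDR windows on 4, 33.3% of the 18 on the arms of 2 and 3, and 1 of the 4 on X. In the pooled list it was in 6.25% of the 32 windows on X, close to the 5.77% of the rest. The full lists of replicates 1, 2 and 3 gave 8.33%, 3.85% and 5.88% on X. Over the pooled list it was in 20 of 135 member windows, 14.8%, so the sequences shown above, in which all but the one at Pur-alpha hold it, are not typical of members in this. In flanks of all members it was in 4.07%, against 2.34% in the rest, and the regions are richer in A and T than the rest (GC 39.4% and 42.6%). The IDR summit windows themselves had a GC content of 38.5% in members and 38.6% in the rest. How much of the difference goes with base composition was not tested.

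**Figure D5:**
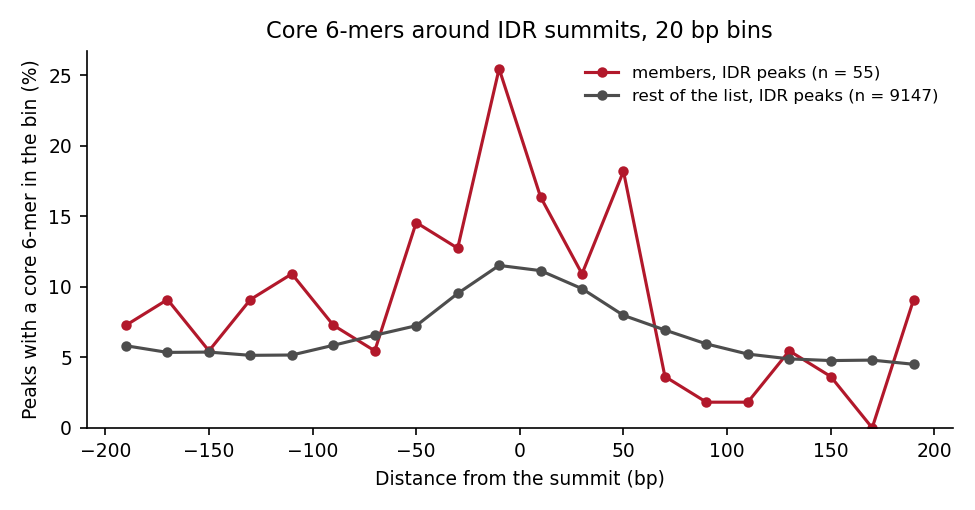
Share of IDR peaks with the centre of a match to any of the 4 core 6-mers in each 20 bp bin around the summit, for the 55 members (red) and the 9147 other IDR peaks (grey). The bin just left of the summit holds a match in 25.5% of members and 11.5% of the rest, and beyond about 60 bp both lie near their flanking level, with the member line uneven because each peak is worth 1.82 percentage points.

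Of 12 consensus motifs of other factors and repeats, the GAGA element GAGAG, the site of GAGA factor and its partners, was the one at which IDR members and their flanks were farthest apart, although its longer form GAGAGAG was in 0 of 135 member windows (a limit of 2.22%) and 2.92% of the rest, and in 0.92% ± 0.39 and 2.85% ± 0.32 over the replicate lists. It was in 25.5% of IDR member windows and 4.55% of their flanks, against 16.5% and 13.2% for the other IDR peaks. Over the full replicate lists it was in 17.1% ± 1.13 of member windows and 14.7% ± 0.93 of the rest, so at summits the groups were close, and the members' flanks were poorer, at 9.33% against 12.1%. TATAAA went the other way over all IDR members, in 21.8% of their windows and 28.2% of their flanks, against 16.9% and 12.2% for the other IDR peaks. By region it was in 15.2% of IDR windows and 33.3% of flanks on 4, and in 33.3% and 19.4% on the arms of 2 and 3. The letters GGTCACAC, a site of M1BP, were in 0 of 135 member windows, which allows a share of up to 2.22%, and in 0.86% of the rest. At these counts no difference was detectable. Motif matches describe the sequence only and do not mark a bound site.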

How the data were processed

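Anti-GFP ChIP-seq was done by the authors on 3 replicates of 1 group, which the labels call biological. They deposited a peak list per replicate, 1 on the pooled replicates and the IDR list, all on dm6. Each peak has a score, which the authors deposited and which was used here only to rank peaks within a list, and a −log10 q value, deposited too, whose ceiling was shared by every IDR peak and which no result uses. Aligner, caller and IDR threshold are not stated in the labels. Read counts were not used here, so depth is unknown. The control library was not analysed here.

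Summits were assigned to regions, Ensembl 115 genes and the RefSeq release 6 genome with Python 3.11.15, numpy 2.4.6, pandas 2.3.3, scipy 1.17.1 and matplotlib 3.10.9, and the code was checked on simulated data. Overlap needed 1 bp. Members were compared with the rest in each replicate list by exact sign-flip permutation, two-sided. Wilson and Poisson 95% intervals cover counting error over peaks only. Peaks are not replicates, and neighbouring summits can share a peak.

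Text names the nearest gene of the 15 highest-scoring members, up to 3 genes per region with the highest-scoring promoter summit, up to 5 genes with most summits, and genes of 5 lists. Other genes named (neighbours, members absent from a replicate, and CaMKII) were chosen after their values were seen. Members and lists were chosen with earlier results of these data known. Alternatives were the IDR or shortened lists, moved boundaries, chromosome 4 left out, other promoter and window sizes, and each replicate left out. Sequences are printed for 7 members, and those of the others, 1 of the strongest among them, are not reported here.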

Additional observations from a re-analysis of the deposited data

How the results depend on the processing

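Member density was 7.25 peaks per Mb. It was 2.96 in the IDR list, 3.21 in replicate lists shortened to 9202 peaks, 4.90 with boundaries moved 0.5 Mb towards the centromere, and 4.29 without chromosome 4. Per 100 TSSs it was 22.7, and 9.24 in the IDR list, 34.8 over TSSs of coding genes and 18.6 with moved boundaries. The IDR share of 40.7% became 51.9% with moved boundaries and 29.7% without chromosome 4. The share found in all 3 replicates, 68.9%, became 45.9% when summits had to lie within 100 bp and 34.8% in the shortened lists, and ranged between 70.4% and 84.4% when 1 replicate was left out. The promoter share of 36.3% became 25.9% within 250 bp, 46.7% within 1000 bp and 49.1% in the IDR list. Without chromosome 4, 9 genes of the 24 remained. Window GC of 39.4% became 38.7% in 51 bp windows and 38.5% in the IDR list. Most of these changes follow from the construction of the alternative, which changes the peaks, bases or distances counted. Leaving out summits within 250 bp of a stronger one, an alternative added after seeing the data, gave an IDR share of 44.3%, a share in all 3 replicates of 64.2% and a promoter share of 34.9%. No paired analysis was possible because the 1 group shares no replicate numbers with another. Members and rest were compared within each replicate list.

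With 3 replicates no exact sign-flip permutation test can go below p = 0.25. Library depth and the alignability of repeats are unknown, so a region without peaks is not shown to lack binding. The IDR list holds only 4 members on X and 2 each on 2L and 3L.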
